A study of Mus musculus with 15 samples.

Results

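Hmgcs1, Idi1, Fdft1, Sqle, Lss and Cyp51 encode enzymes that make cholesterol, and Srebf2 and Insig1 encode proteins that regulate them. They were taken as the probe sets whose single gene symbol in the array's annotation is one of these names. Together the 8 genes had 21 of the 45101 probe sets on the array, and 18 of the 21 passed the filter on low signal, among 31480 probe sets tested. None of the 8 encodes a receptor for cholesterol uptake, so the set describes synthesis and its control.

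The samples were total RNA from the synovium of mouse knee joints, run on 15 Affymetrix arrays, 1 per sample and 3 in each of 5 groups. Collagen-induced arthritis (CIA) is a joint disease raised in mice by immunization against type II collagen. The 5 groups were healthy naive mice and CIA mice whose joints had no, mild, moderate or severe swelling, which the titles call joint inflammation of the same grade. Immunization was with 100 µg of type II collagen and FCA (day 0), and the boost was 100 µg intraperitoneally on day 21, per the labels. The same protocol text stands on the naive samples, where it was taken not to apply. If it did, the comparisons with naive would not be with unimmunized mice. The labels used here give no strain, sex, age or sampling day, and do not say that replicates are separate animals, so p-values reflect only the spread among these arrays, part or all of which could be technical.

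Cholesterol is built from acetyl-CoA by way of mevalonate, the isoprenoid diphosphates, squalene and lanosterol. The transcription factor SREBP-2, the product of Srebf2, switches on most genes of this route when the membranes of the endoplasmic reticulum are short of sterol. When sterol is plentiful, INSIG proteins hold SREBP-2 and its escort SCAP in that membrane, and Insig1 is itself a gene that SREBP-2 switches on. Macrophages, which gather in inflamed joints, take up lipoproteins and debris and export cholesterol through ABC transporters.

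Since SREBP-2 acts on promoters, the 250 bases before the annotated start were read for the 6 of the 8 genes listed in the RefSeq promoter table (build GRCm38.p6). The 4 windows shown are those of an early enzyme that holds a sterol regulatory element core, of an enzyme whose signal fell with swelling, and of the 2 regulators. Capitals mark TCACNCCAC, the core, and CCAAT or its reverse complement ATTGG, the CCAAT box bound by NF-Y. Both strands were searched. The Hmgcs1 window is chr13:119690101-119690350, the Idi1 window chr13:8885356-8885605, the Srebf2 window chr15:82147019-82147268 and the Insig1 window chr5:28071162-28071411, all on the plus strand.
Hmgcs1: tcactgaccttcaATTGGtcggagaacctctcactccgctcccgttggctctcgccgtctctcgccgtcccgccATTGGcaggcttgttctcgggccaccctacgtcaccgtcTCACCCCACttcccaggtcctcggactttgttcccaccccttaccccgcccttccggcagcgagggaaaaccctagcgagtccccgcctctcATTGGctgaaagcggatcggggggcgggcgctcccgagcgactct
Idi1: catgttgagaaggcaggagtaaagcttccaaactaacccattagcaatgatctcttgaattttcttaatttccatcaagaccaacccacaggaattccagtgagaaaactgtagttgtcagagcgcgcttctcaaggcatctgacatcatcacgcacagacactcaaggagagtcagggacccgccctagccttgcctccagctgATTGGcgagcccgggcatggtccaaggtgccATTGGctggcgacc
Srebf2: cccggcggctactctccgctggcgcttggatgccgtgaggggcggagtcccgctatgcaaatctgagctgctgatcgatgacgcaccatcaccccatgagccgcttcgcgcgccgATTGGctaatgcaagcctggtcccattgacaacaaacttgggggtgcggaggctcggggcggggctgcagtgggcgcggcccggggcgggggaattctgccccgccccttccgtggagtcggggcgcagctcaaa
Insig1: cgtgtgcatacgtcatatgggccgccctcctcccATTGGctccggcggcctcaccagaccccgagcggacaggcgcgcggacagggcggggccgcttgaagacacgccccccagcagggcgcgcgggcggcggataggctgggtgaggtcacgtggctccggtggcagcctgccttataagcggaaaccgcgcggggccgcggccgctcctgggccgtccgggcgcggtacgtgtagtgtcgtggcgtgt
The core occurred in 1 of the 6 windows, that of Hmgcs1, and in 1.04% of all 32536 windows of the same length in the table. A CCAAT box occurred in 6 of 6, against 33.8% of those windows, and a GC box (GGGCGG, either strand) in 6 of 6, against 33% of them. A match describes the letters and is not a binding site, and a window without one says nothing of the factor.

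Signals are MAS5 intensities on a linear scale, set by the authors to a trimmed mean of 150 on every array, and median signals were 36.3 to 47.6. Differences are log2 fold changes of signal + 16, which understates the change of dim probe sets, with the standard error (SE) of limma. A probe set was called when its limma p, adjusted by Benjamini-Hochberg over all 31480, was under 0.05, and signals of different probe sets are not compared. All 8 markers of synovial fibroblasts (Prg4, Cdh11 and others) passed the signal filter, and their summed signal was 4567 or more on every array. All 8 skeletal muscle markers passed it too, and their summed signal was 34000 or more on every array. In bulk tissue, fewer cells of a type and less RNA per cell cannot be told apart. Scaled instead on 9 hybridization controls, transcripts spiked into the hybridization mix, the median probe set shifted by 0.49 on the log2 scale in severe swelling against naive, 0.41 in moderate, 0.54 in mild and -0.11 in joints without swelling. The same scaling gave 0.61 in severe and 0.66 in mild swelling against no swelling. Calls lost under it are given with their values beside the results below.

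**Figure D1:**
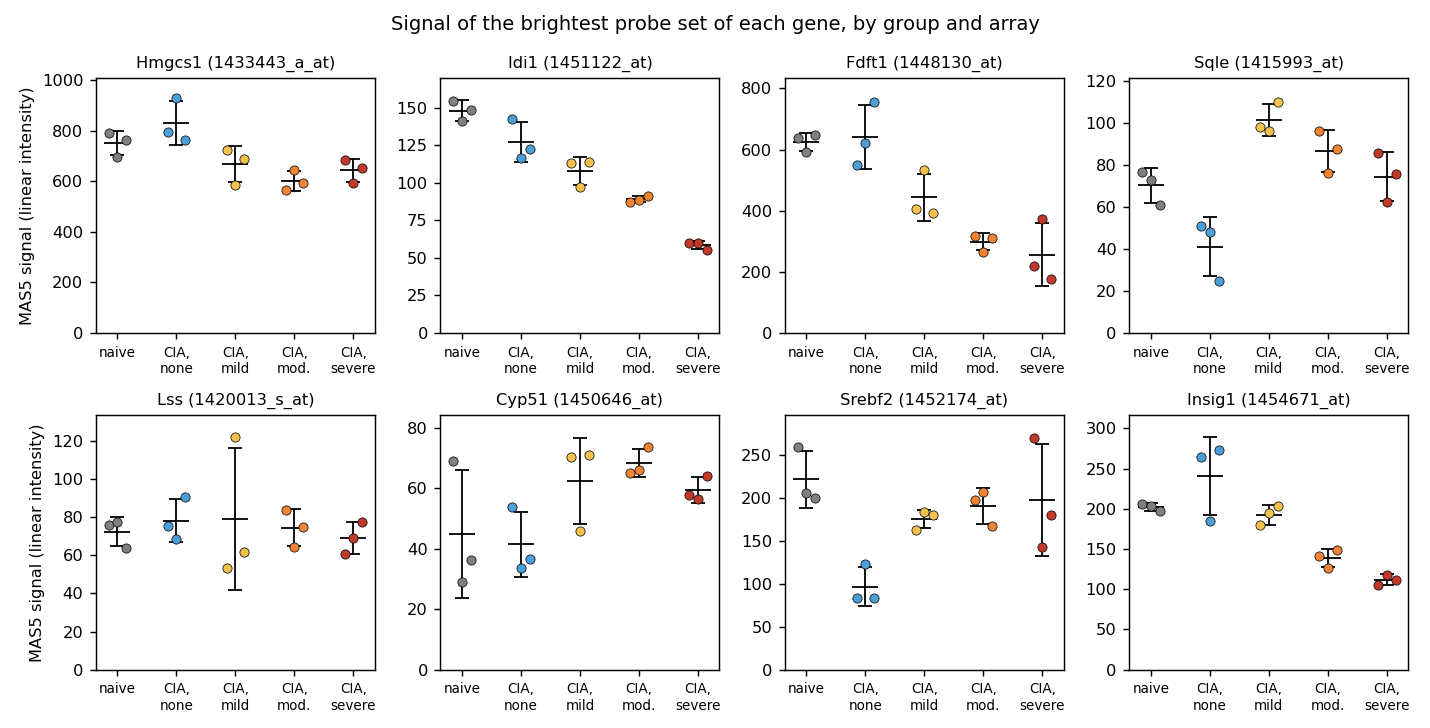
MAS5 signal (linear intensity, axis from 0) of the brightest probe set of each of the 8 genes in the 5 groups, with 1 point per array, a bar at the mean and whiskers of 1 SD (n = 3). Idi1 steps down from naive to severe joints (means 148 and 58.43), Insig1 is lowest in severe joints, and Srebf2 and Sqle are lowest in CIA joints without swelling.

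In severe swelling against naive, Idi1, Fdft1 and Insig1 were lower by their brightest probe sets, while those of Hmgcs1, Sqle, Lss, Cyp51 and Srebf2 were not called. Of the 18 probe sets, 2 were called higher and 6 lower, but 3 higher and 0 lower with hybridization control scaling. Of all probe sets tested, 28.3% were called higher and 21.3% lower, 49.6% in all, so the share of the 18 that was called is near the background. Their median log2 fold change was -0.18, against 0.08 over all probe sets tested. The groups did not overlap for 10 of the 18, against 57.5% of all probe sets. In moderate swelling against naive 2 were higher and 6 lower (background 26.8% and 22.5%, 49.3% in all), and in mild swelling 2 were higher and 1 lower (19.2% and 15.3%, 34.5% in all). With hybridization control scaling these became 3 higher and 0 lower in moderate and 7 higher and 0 lower in mild swelling. Dim probe sets that passed the filter only through the groups where they were high are among the calls with the deposited scaling. They are 1438918_at of Fdft1 in severe, moderate and mild swelling, 1438919_x_at of Fdft1 in mild, and 1420014_at of Lss in moderate swelling. Their calls carry no support for the genes. A moderated F test over the 5 groups together called 11 of 18, both dim Fdft1 probe sets among them, against 55% of all.

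Hmgcs1, which makes HMG-CoA at the entry to the mevalonate arm, differed by small amounts. Its brightest probe set, 1433443_a_at, had signals of 791.3, 698.3 and 765.5 in naive joints, 796.1, 931.9 and 765.8 without swelling, 725.3, 587.5 and 688.1 with mild, 565.6, 644.7 and 594.5 with moderate and 684.3, 595.4 and 652.3 with severe swelling. Severe and moderate arrays lay below every naive array, and each pair of neighbours in the order of group means overlapped. It was lower in moderate swelling than in naive joints by a log2 fold change of -0.31 ± 0.12 (SE; limma adjusted p = 0.0412) and in severe swelling than in joints without swelling by -0.36 (0.0223). In severe swelling against naive it stood at -0.22 ± 0.12 (0.148), not called. Scaled on the hybridization controls, both calls were lost and turned sign, to 0.17 and 0.28. The call in moderate swelling was also lost under quantile normalization (-0.28, adjusted p = 0.0731), with no intensity trend (0.0625), with the replicate block (0.0612) and without naive replicate 1 (-0.28, 0.129) or 3 (-0.30, 0.103) or moderate replicate 1 (-0.27, 0.126) or 3 (-0.31, 0.0893). The call against no swelling was lost under quantile normalization (-0.27, 0.0832), with only the groups compared (0.0637), without no-swelling replicate 2 (-0.27, 0.0995) and without severe replicate 2 (-0.30, 0.073).

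The other probe sets of Hmgcs1 did not share a pattern. Of these, 1433446_at had 211.4, 182.9 and 179.1 in severe joints against 276.9, 267.4 and 242.1 in naive joints. No severe array reached the lowest naive one, and the log2 fold change was -0.43 ± 0.14 (limma adjusted p = 0.0166), lost without naive replicate 1 (-0.39, 0.0599) or severe replicate 3 (-0.39, 0.0584) and turned to 0.05 with hybridization control scaling. The other CIA groups lay below every naive array too. Their differences from naive were not called, at -0.30 without swelling (0.261), -0.35 with mild (0.0609) and -0.34 with moderate swelling (0.0515). Severe against no swelling stood at -0.12 (0.487). The probe sets 1433445_x_at and 1433444_at were called in no comparison and had their highest group mean in mild swelling. In severe swelling 1433445_x_at stood at 462.5, 518.9 and 493.0 against 659.6, 625.9 and 606.3 in mild swelling, without overlap, a log2 fold change of -0.35 (0.0521). The fifth, 1441536_at, ranged from 2.6 to 19.2, above the 40th percentile of signal on 0 of 15 arrays, and was not tested.

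Idi1, whose product turns isopentenyl diphosphate into its isomer, was lowest in severe swelling by both tested probe sets. Only the brighter was lower in each swollen group than in naive joints. Probe set 1451122_at had signals of 154.6, 141.0 and 148.4 in naive joints, 142.1, 116.4 and 122.3 without swelling, 113.1, 97.3 and 113.7 with mild, 87.3, 88.3 and 91.1 with moderate and 59.8, 60.1 and 55.4 with severe swelling. Naive joints and joints without swelling overlapped, and each degree of swelling lay wholly below the group listed before it. The mean was 58.43 ± 2.63 in severe swelling and 148.0 ± 6.81 in naive joints (SD, n = 3 each), a log2 fold change of -1.14 ± 0.12 (limma adjusted p = 1.82e-06). It was also called in moderate (-0.64, adjusted p = 0.000392) and mild swelling (-0.40, 0.0178) against naive, and in severe swelling against no (-0.94, 1.32e-05) and mild swelling (-0.73, 0.00362). In joints without swelling against naive it was not called (-0.20, 0.423), and in severe against moderate swelling it was not called although the groups lay apart (-0.50, 0.46). Of all probe sets only 1 was called between severe and moderate swelling (0.00318%), and 0 of the 18 by limma, where both Idi1 probe sets, 2 of the 18, had an unadjusted p under 0.05.

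For Idi1 1451122_at the fall in severe swelling was called under 26 of 27 alternative settings, from -1.33 to -0.70. The exception was hybridization control scaling (-0.70, limma adjusted p = 0.0742, with the median probe set at 0.49). That scaling also ended the calls in moderate swelling (-0.20, 0.67) and in severe against no swelling (-0.39, 0.337), and turned mild swelling to 0.17. The call in mild swelling was lost without naive replicate 1 (-0.38, 0.0611) or mild replicate 2 (-0.34, 0.058), and that between severe and mild swelling when only these groups were fitted (0.062) and with hybridization control scaling (-0.87, 0.161).

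The dimmer Idi1 probe set, 1423804_a_at, had 36.3, 54.2 and 31.9 in severe joints against 70.7, 79.6 and 77.7 in naive joints. It was lower there without overlap, by -0.71 ± 0.21 (limma adjusted p = 0.00927), and was not called in moderate (-0.20) or mild swelling (0.06). Against no swelling (94.4, 59.2 and 74.3) it was lower in severe swelling by -0.70 (0.0111), a call lost without no-swelling replicate 1 (-0.56, 0.0595) or severe replicate 3 (-0.58, 0.0525). Hybridization control scaling ended both calls (-0.31, 0.454, and -0.18, 0.663). Its call in severe against mild swelling (-0.78, 0.0303) was lost in 7 of 26 alternatives, without mild replicate 1 (-0.73, 0.0918) or 2 (-0.82, 0.0772) without severe replicate 1 (-0.73, 0.127) or 3 (-0.66, 0.119) and with hybridization control scaling (-0.91, 0.11) among them.

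**Figure D2:**
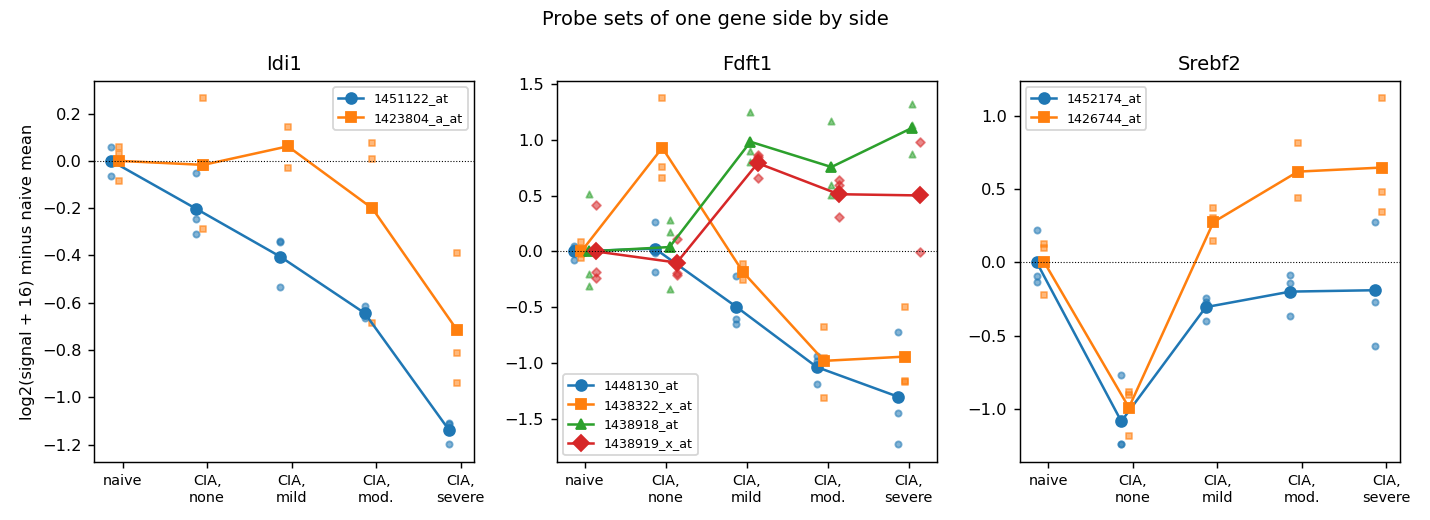
Log2(signal + 16) minus the naive mean, by group, for each tested probe set of Idi1, Fdft1 and Srebf2, with small points for arrays and joined large symbols for group means (n = 3). The 2 Srebf2 probe sets dip together in CIA joints without swelling, while the 4 Fdft1 probe sets part into a bright pair that lies below and a dim pair that lies above the naive mean in severe joints.

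Fdft1 encodes squalene synthase, the first enzyme committed to sterols. Its brightest probe set, 1448130_at, had signals of 638.2, 592.0 and 647.1 in naive joints, 549.7, 621.0 and 755.2 without swelling, 405.0, 533.3 and 393.4 with mild, 318.5, 266.1 and 309.1 with moderate and 219.2, 372.6 and 177.8 with severe swelling. All swollen joints lay below all others, and severe and moderate arrays overlapped. The mean was 256.5 ± 103 in severe swelling and 625.8 ± 29.6 in naive joints (SD, n = 3 each), a log2 fold change of -1.30 ± 0.20 (limma adjusted p = 6.56e-05). It was lower in moderate swelling than in naive joints by -1.03 (0.000524) and in severe swelling than without swelling by -1.32 (5.95e-05). Mild swelling against naive was not called (-0.49, 0.0736), nor was no swelling (0.03, 0.968). Hybridization control scaling was the exception among 27 alternatives, with -0.80 (0.0627) for severe and -0.55 (0.233) for moderate swelling against naive and -0.70 (0.104) for severe against no swelling. Severe against mild swelling (-0.81, 0.0238) was lost without mild replicate 1 (-0.86, 0.0506) or 2 (-0.67, 0.111) without severe replicate 1 (-0.73, 0.118) or 3 (-0.59, 0.112), when only these groups were fitted (0.123) and with hybridization control scaling (-0.94, 0.181).

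The second bright Fdft1 probe set, 1438322_x_at, stood apart in CIA joints without swelling. It had 574.9, 619.7 and 954.8 there against 344.5, 353.1 and 382.4 in naive joints. Every array without swelling lay above every naive array, at a log2 fold change of 0.93 ± 0.21 (limma adjusted p = 0.0276). The call was lost without naive replicate 1 (0.90, 0.0971), 2 (0.91, 0.0837) or 3 (0.97, 0.0822), without no-swelling replicate 3 (0.71, 0.103) and with hybridization control scaling (0.79, 0.723). In severe swelling its signals were 152.0, 251.0 and 151.1, below every other group but moderate swelling. It was lower there than in naive joints by -0.94 ± 0.21 (0.00133; with hybridization control scaling -0.46, 0.314), and than in joints without swelling by -1.87 (3.24e-06), which was called under 26 of 26 alternatives. It was also lower in mild swelling than without swelling (-1.11, 0.000898; with hybridization control scaling -0.36, 0.416). By the array's naming, the suffix x_at marks probes that can match other transcripts, so part of this signal may not be Fdft1. The same limit holds for 1433445_x_at of Hmgcs1 and 1438919_x_at of Fdft1.

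The 2 dim Fdft1 probe sets had higher signals in swollen joints. Probe set 1438918_at had 38.4, 45.7 and 29.3 in severe joints against 4.0, 5.5 and 19.4 in naive joints, without overlap and at a log2 fold change of 1.11 ± 0.27 (limma adjusted p = 0.00298; 0.47 to 2.13 over the alternatives). Probe set 1438919_x_at had 36.1, 36.7 and 29.7 in mild swelling against 8.6, 9.5 and 22.7 in naive joints, at 0.79 ± 0.26 (0.0266), and was not called in severe swelling (0.50, 0.122). The mild call of 1438919_x_at was lost without naive replicate 1 (0.67, 0.0973) or 2 (0.70, 0.085) or mild replicate 1 (0.76, 0.0758) or 2 (0.75, 0.0615). Each was above the array's 40th percentile on 5 of 15 arrays, all from swollen joints, so both passed the filter only through the groups where they were high and their calls carry no support for the gene. Which of the 4 probe sets follow the messenger RNA of squalene synthase was not tested.

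Sqle, squalene epoxidase, had its lowest signals in CIA joints without swelling. Its single probe set, 1415993_at, had signals of 76.7, 73.1 and 61.1 in naive joints, 50.8, 48.0 and 24.8 without swelling, 97.9, 96.2 and 110.1 with mild, 96.4, 76.2 and 87.5 with moderate and 85.5, 62.2 and 75.5 with severe swelling. All 3 arrays without swelling lay below all 12 others. The difference between joints without swelling and naive joints was nevertheless not called (-0.62 ± 0.18, limma adjusted p = 0.0826). Against no swelling Sqle was higher in mild (1.07 ± 0.18, 0.000484) and severe swelling (0.69, 0.00543), both called under 27 of 27 alternatives. Against naive, neither mild (0.45, 0.0707) nor severe swelling (0.06, 0.799) was called, so mild joints lay above naive joints by their arrays but not by the test.

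Lss and Cyp51, which close squalene epoxide into lanosterol and then remove a methyl group from it, gave little. The brighter Lss probe set, 1420013_s_at, ranged from 53.5 to 121.8, both in mild swelling, and its groups overlapped throughout (severe against naive -0.06 ± 0.21, limma adjusted p = 0.847). Probe set 1420014_at of Lss was lower in moderate swelling (5.1, 23.4 and 1.9) than in naive joints (38.6, 22.1 and 35.8) by -0.95 ± 0.37 (0.0421). Those groups overlapped. Signal exceeded the 40th percentile on only 5 of 15 arrays, 2 naive, 2 without swelling, 1 severe and 0 moderate or mild. The probe set thus passed the filter only through groups where it was higher, so its call carries no support for the gene. The call was also lost in 9 of 25 alternatives, among them hybridization control scaling (-0.74, 0.0957). Leaving out naive replicate 1 (-0.85, 0.119) or 3 (-0.89, 0.106) ended it. So did leaving out moderate replicate 1 (-0.84, 0.123) or 3 (-0.72, 0.162) or no-swelling replicate 1 (-0.95, 0.0505). A further Lss probe set, 1426913_at, ranged from 5.3 to 30.2 and was not tested.

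Cyp51 was called in no comparison. Its brighter probe set, 1450646_at, had 57.7, 56.3 and 64.2 in severe joints against 68.9, 29.1 and 36.4 in naive joints, where replicate 1 stood above the other two and made the groups overlap. The log2 fold change was 0.36 ± 0.22 (limma adjusted p = 0.183), and 0.53 in moderate swelling (0.0575). Scaled on the hybridization controls, severe against naive became 0.76 (0.0451), above the shift of the median probe set. The second, 1422533_at, had 34.3, 39.4 and 39.6 in severe joints against 27.2, 28.6 and 35.0 in naive joints, at 0.22 ± 0.17 (0.297), and 1422534_at ranged from 0.8 to 23.0 and was not tested.

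Srebf2, the gene of SREBP-2, was at its lowest in CIA joints without swelling by both of its probe sets. Probe set 1452174_at had signals of 260.2, 206.4 and 199.8 in naive joints, 84.0, 122.8 and 84.0 without swelling, 163.4, 183.6 and 180.3 with mild, 198.4, 207.0 and 167.3 with moderate and 270.4, 143.2 and 180.0 with severe swelling. The arrays without swelling lay below all 12 others, and among the other 4 groups only naive and mild joints lay apart. Joints without swelling had a mean of 96.93 ± 22.4, and naive joints 222.1 ± 33.1 (SD, n = 3 each), a log2 fold change of -1.09 ± 0.19 (limma adjusted p = 0.00794). Against no swelling it was higher in severe (0.90, 0.00114) and mild swelling (0.78, 0.00602). Severe swelling against naive was not called (-0.19, 0.443).

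The second Srebf2 probe set, 1426744_at, had 74.2, 97.0 and 99.1 in naive joints, 41.2, 40.3 and 30.4 without swelling, 114.2, 101.0 and 120.6 with mild, 169.8, 144.0 and 127.4 with moderate and 213.4, 117.9 and 131.1 with severe swelling. It shared the low level without swelling (-0.99 ± 0.19 against naive, limma adjusted p = 0.0123) and its arrays from every swollen group lay above every naive array, although mild swelling was not called (0.28, 0.283). Against no swelling it was higher in severe (1.64, 4.34e-06) and mild joints (1.27, 0.000182). It was higher in severe swelling than in naive joints by 0.65 ± 0.19 (0.00942), which was lost under quantile normalization (0.47, 0.0557), with medians aligned (0.45, 0.0736) and without severe replicate 1 (0.41, 0.0662). The rise in moderate swelling (0.62, 0.0125) was lost under quantile normalization (0.44, 0.0717), without naive replicate 1 (0.51, 0.0627) and without moderate replicate 1 (0.52, 0.0599). Severe against naive was thus called by 1 of the 2 probe sets, and the difference between them was not tested.

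In joints without swelling against naive, the 2 Srebf2 probe sets were the only ones of the 18 called lower, and 1438322_x_at of Fdft1 the only one called higher. Over all probe sets tested, 1.52% were called lower and 1.24% higher, 2.76% in all. The groups did not overlap for 6 of the 18, against 25.1% of all, and the median log2 fold change was -0.03, against -0.02 over all. The Srebf2 calls were lost with hybridization control scaling, at -1.16 (adjusted p = 0.108) for 1452174_at and -1.03 (0.169) for 1426744_at. For 1426744_at the call was also lost without naive replicate 2 (-0.94, 0.053) or 3 (-0.93, 0.0667), and for 1452174_at it was kept under the other 26 of 27 alternatives. The higher signal of both in severe and mild swelling against no swelling was called under every alternative run, 27 for 1452174_at and 26 for 1426744_at.

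Other measures moved with this comparison. Summed endothelial marker signal was 712.4 to 829.9 in joints without swelling against 1052 to 1073 in naive joints (0 of 5 markers called), and erythroid marker signal was 65.0 to 69.5 against 106.9 to 125.8 (0 of 2 called). Neutrophil marker signal was 347.9 to 2372 against 72.7 to 102.8, with 3 of 5 called higher, and that of cycling cells 895.3 to 1287 against 773.3 to 888.6, with 2 of 7 called higher. Fibroblast marker signal was 4567 to 8360 against 6265 to 6900 (2 of 8 called higher) and macrophage marker signal 2406 to 5643 against 2788 to 3038 (1 of 8 called higher), both overlapping. Muscle marker signal was 72340 to 80190 against 69200 to 80760, with 0 of 8 called. Skin marker signal was 250.4 to 292.9 against 317.9 to 372.1 (0 of 4 called). Schwann cell and myelin marker signal was 803.1 to 859.8 against 889.4 to 973.7 (0 of 3 called). Adipocyte marker signal was 6798 to 8680 against 4800 to 7301, with overlap (0 of 4 called). Chondrocyte marker signal (386 to 858.8 against 711.3 to 806.6, 0 of 5 called) and T cell marker signal (29.5 to 55.9 against 22.4 to 60.1, 0 of 2 called) overlapped too. The ratio of 3' to 5' actin signal, a sign of RNA quality, was 1.10 ± 0.0471 against 0.978 ± 0.0764 (SD, n = 3 each). The same ratio of Gapdh did not move, at 0.845 ± 0.041 against 0.852 ± 0.0322. Their part in the Srebf2 and Fdft1 results was not tested.

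Insig1, which holds SREBP-2 back when sterol is plentiful, was lower with moderate and severe swelling. Its single probe set, 1454671_at, had signals of 206.1, 203.8 and 197.3 in naive joints, 264.3, 184.6 and 272.9 without swelling, 179.3, 194.4 and 202.9 with mild, 141.0, 126.1 and 149.1 with moderate and 105.0, 118.2 and 112.1 with severe swelling. Severe arrays lay below all moderate ones and moderate arrays below all of the others, while naive, unswollen and mild joints overlapped. The mean was 111.8 ± 6.61 in severe swelling and 202.4 ± 4.56 in naive joints (SD, n = 3 each), a log2 fold change of -0.77 ± 0.14 (limma adjusted p = 0.000242). It was lower in moderate swelling than in naive joints by -0.50 (0.00752) and in severe swelling than without swelling by -0.99 (2.77e-05), and mild swelling against naive was not called (-0.07, 0.738). Hybridization control scaling was the exception among 27 alternatives, with -0.31 (0.496) for severe and -0.04 (0.943) for moderate swelling against naive and -0.39 (0.356) for severe against no swelling. Severe against mild swelling (-0.70, 0.00815) was lost without severe replicate 1 (-0.67, 0.0521), when only these groups were fitted (0.0613) and with hybridization control scaling (-0.84, 0.231).

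**Figure D3:**
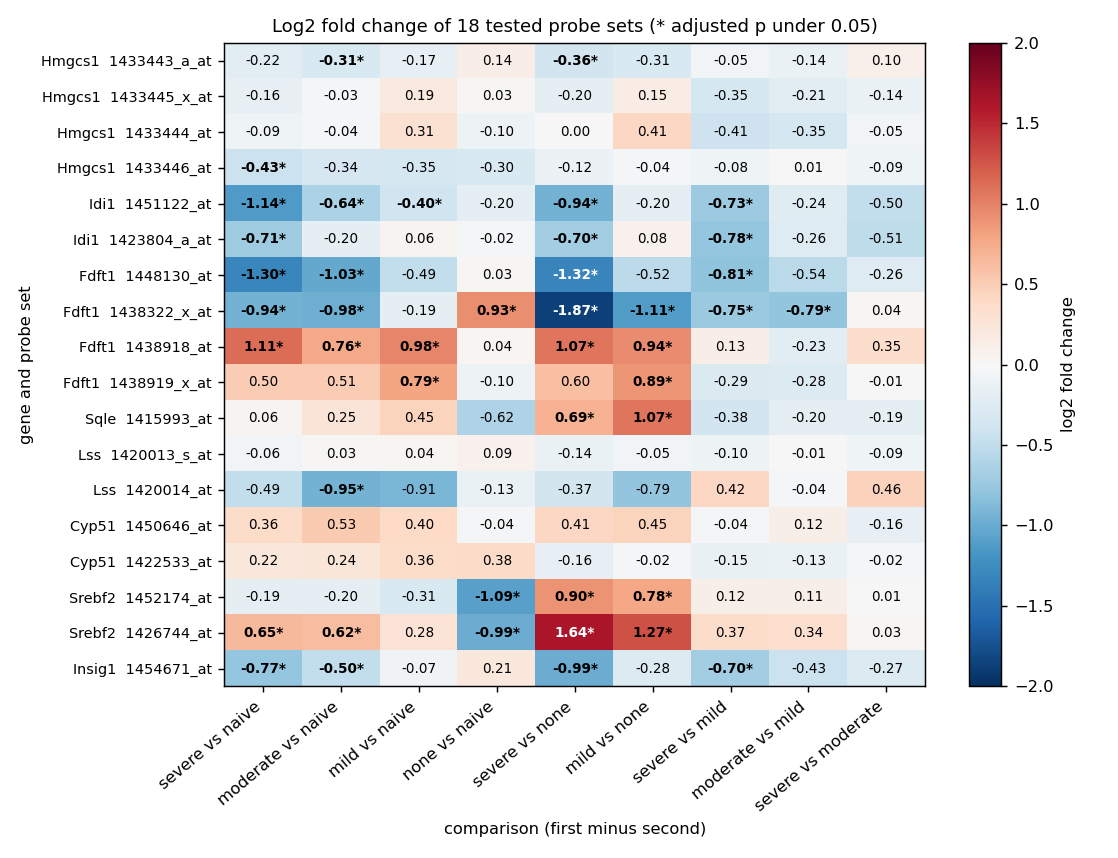
Log2 fold changes (first group minus second, colour scale from -2 to 2) of the 18 tested probe sets in 9 comparisons, with an asterisk where the limma adjusted p was under 0.05. Idi1, the bright Fdft1 probe sets and Insig1 are blue in severe swelling, both Srebf2 rows are blue in the column for no swelling against naive, and the Lss and Cyp51 rows are pale except for the dim Lss probe set.

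Counted over all 18 probe sets, severe against no swelling gave 4 higher and 6 lower, against 28.5% higher and 19.9% lower of all (48.5% called). With hybridization control scaling it gave 6 higher and 1 lower. The median log2 fold change was -0.15, against 0.11 over all. Mild against no swelling gave 5 higher and 1 lower (background 18.4% and 13.3%, 31.7% in all). With hybridization control scaling it gave 8 higher and 0 lower. The 5 were Sqle, both Srebf2 and both dim Fdft1 probe sets, and the calls of the dim pair carry no support. Of the dim pair, 1438918_at was also among the 4 higher in severe against no swelling. Among the degrees of swelling, severe against mild gave 0 higher and 5 lower (4.45% and 4.91%, 9.36% in all), namely both Idi1, the bright pair of Fdft1 and Insig1. The bright x_at set of Fdft1 stood at -0.75 there (limma adjusted p = 0.0343), lost in 9 of 26 alternatives, among them without mild replicate 1 (0.0738), 2 (0.0986) or 3 (0.0567) and without severe replicate 1 (0.161) or 3 (0.133). The count in severe against mild was 0 with hybridization control scaling and when only the groups compared were fitted, and 1 to 6 when single arrays were left out. Moderate against mild gave 0 higher and 1 lower (2.12% and 2.6%, 4.72% in all), namely 1438322_x_at of Fdft1 (-0.79, limma adjusted p = 0.041), which was lost in 14 of 26 alternatives. Among these were hybridization control scaling (-0.94, 0.23) and leaving out any one naive or mild array or moderate replicate 1 or 2, with adjusted p from 0.054 (without mild replicate 3) to 0.182 (without moderate replicate 2).

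Cell markers and the 3' to 5' ratio of actin moved with swelling, while that of Gapdh overlapped between severe and naive joints. Summed macrophage marker signal was 11940 to 16160 in severe joints against 2788 to 3038 in naive joints (8 of 8 markers higher), and fibroblast marker signal was 22660 to 32770 against 6265 to 6900 (8 of 8 higher). Neutrophil marker signal was 8321 to 11560 against 72.7 to 102.8 (5 of 5 higher), and that of cycling cells 3016 to 3666 against 773.3 to 888.6 (7 of 7 higher). Adipocyte marker signal was 3497 to 4978 against 4800 to 7301 (3 of 4 lower), chondrocyte marker signal 3554 to 5764 against 711.3 to 806.6 (4 of 5 higher) and endothelial marker signal 1568 to 1930 against 1052 to 1073 (3 of 5 higher). Erythroid marker signal was 30.0 to 68.8 against 106.9 to 125.8 (1 of 2 lower), skin marker signal 197.5 to 270.4 against 317.9 to 372.1 (2 of 4 lower) and Schwann cell and myelin marker signal 1149 to 1526 against 889.4 to 973.7 (1 of 3 higher, 2 lower). T cell marker signal was 62.1 to 143.3 against 22.4 to 60.1 (1 of 2 higher), and skeletal muscle signal 51280 to 72170 against 69200 to 80760 (3 of 8 lower). Muscle signal was 47560 to 52090 in mild and 34000 to 54070 in moderate joints. The actin ratio was 1.25 ± 0.0294 in severe joints against 0.978 ± 0.0764 in naive joints (SD, n = 3 each). The Gapdh ratio was 0.891 ± 0.0668 (range 0.825 to 0.959) against 0.852 ± 0.0322 (0.826 to 0.888), with overlap. The part of these shifts in the results was not tested.

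The other enzymes of cholesterol synthesis were mixed as well. Of 13 tested, each by its brightest probe set, 2 were higher and 4 lower in severe swelling than in naive joints, where 31.8% and 22.6% of all genes were, and their median log2 fold change was -0.43. Among the mevalonate enzymes Pmvk, phosphomevalonate kinase, was lower (-0.64 ± 0.18, limma adjusted p = 0.00628), while Mvk (-0.67, 0.0956), Fdps (-0.62, 0.0568) and Mvd (0.28, 0.276) were not called. After lanosterol, Sc5d, the sterol desaturase, had 93.6 ± 18.9 in severe joints against 274.2 ± 15.0 in naive joints (SD, n = 3 each), at -1.42 ± 0.15 (1.71e-06), and its 2 other probe sets were called the same way. Hsd17b7, a ketosteroid reductase of the route (-0.59 ± 0.13, 0.000919), and Tm7sf2, a sterol reductase (-0.47 ± 0.18, 0.039), were also lower. Ebp, the sterol isomerase, was higher at 504.2 ± 78.8 in severe joints against 175.6 ± 2.34 in naive joints (1.43 ± 0.18, 7.85e-06), as was Erg28, known from yeast as a scaffold of sterol demethylation (1.03 ± 0.15, 2.9e-05).

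Those counts leaned on the scaling. Quantile normalization and aligned medians each gave 2 higher and 8 lower of the 13, and hybridization control scaling 2 higher and 1 lower, with a median of -0.01. Ebp, Erg28 and Sc5d were called in the same direction under all 27 alternatives. The calls of Pmvk (-0.18, adjusted p = 0.689) and Hsd17b7 (-0.14, 0.765) were lost with hybridization control scaling alone. That of Tm7sf2 was lost in 6 of 27 alternatives, among them hybridization control scaling (-0.04, 0.929) and without naive replicate 2 (-0.39, 0.133) or 3 (-0.44, 0.0995) and without severe replicate 1 (-0.41, 0.124) or 3 (-0.49, 0.0675). In joints without swelling against naive 0 of the 13 were called by limma and 0 had an unadjusted p under 0.05, where 1.36% of all genes were higher and 1.62% lower.

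Of the 8 tested genes that process SREBP or sense sterol, 3 were higher and 3 lower in severe swelling than in naive joints, where 31.8% and 22.6% of all genes were. Scap, the escort of SREBP (0.63 ± 0.22, limma adjusted p = 0.0251), Mbtps1, the protease that first cleaves it (0.79 ± 0.14, 0.000263), and Stard4, a sterol carrier (0.57 ± 0.16, 0.006), were higher. Insig2, the second INSIG gene, had 456.7 ± 87.4 in severe joints against 947.2 ± 129 in naive joints (SD, n = 3 each), at -1.03 ± 0.15 (2.37e-05), so both INSIG genes were lower. Srebf1, the gene of SREBP-1 (-0.61 ± 0.18, 0.00953), and Rnf139, a ubiquitin ligase of the endoplasmic reticulum (-1.43 ± 0.20, 1.63e-05), were lower too. With hybridization control scaling Insig2 (-0.53, 0.235) and Srebf1 (-0.11, 0.833) were no longer called. The call of Scap was lost under quantile normalization (0.54, 0.0597), aligned medians (0.42, 0.124) and on leaving out naive replicate 1 (0.60, 0.0689), naive replicate 2 (0.60, 0.0666), severe replicate 1 (0.41, 0.149) or severe replicate 3 (0.54, 0.0912), and that of Stard4 with aligned medians (0.37, 0.0675).

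The paralog Srebf1 stood opposite to Srebf2 in joints without swelling, at 2017 ± 145 there against 1180 ± 112 in naive joints (SD, n = 3 each). Its log2 fold change was 0.77 ± 0.18 (limma adjusted p = 0.0333). That call was lost in 9 of 27 alternatives, among them hybridization control scaling (0.63, 0.961) and quantile normalization (0.67, 0.0742). It was also lost without naive replicate 1 (0.69, 0.133), 2 (0.81, 0.0761) or 3 (0.81, 0.092) and without no-swelling replicate 1 (0.71, 0.134) or 3 (0.77, 0.077). The difference between the 2 genes was not tested.

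**Figure D4:**
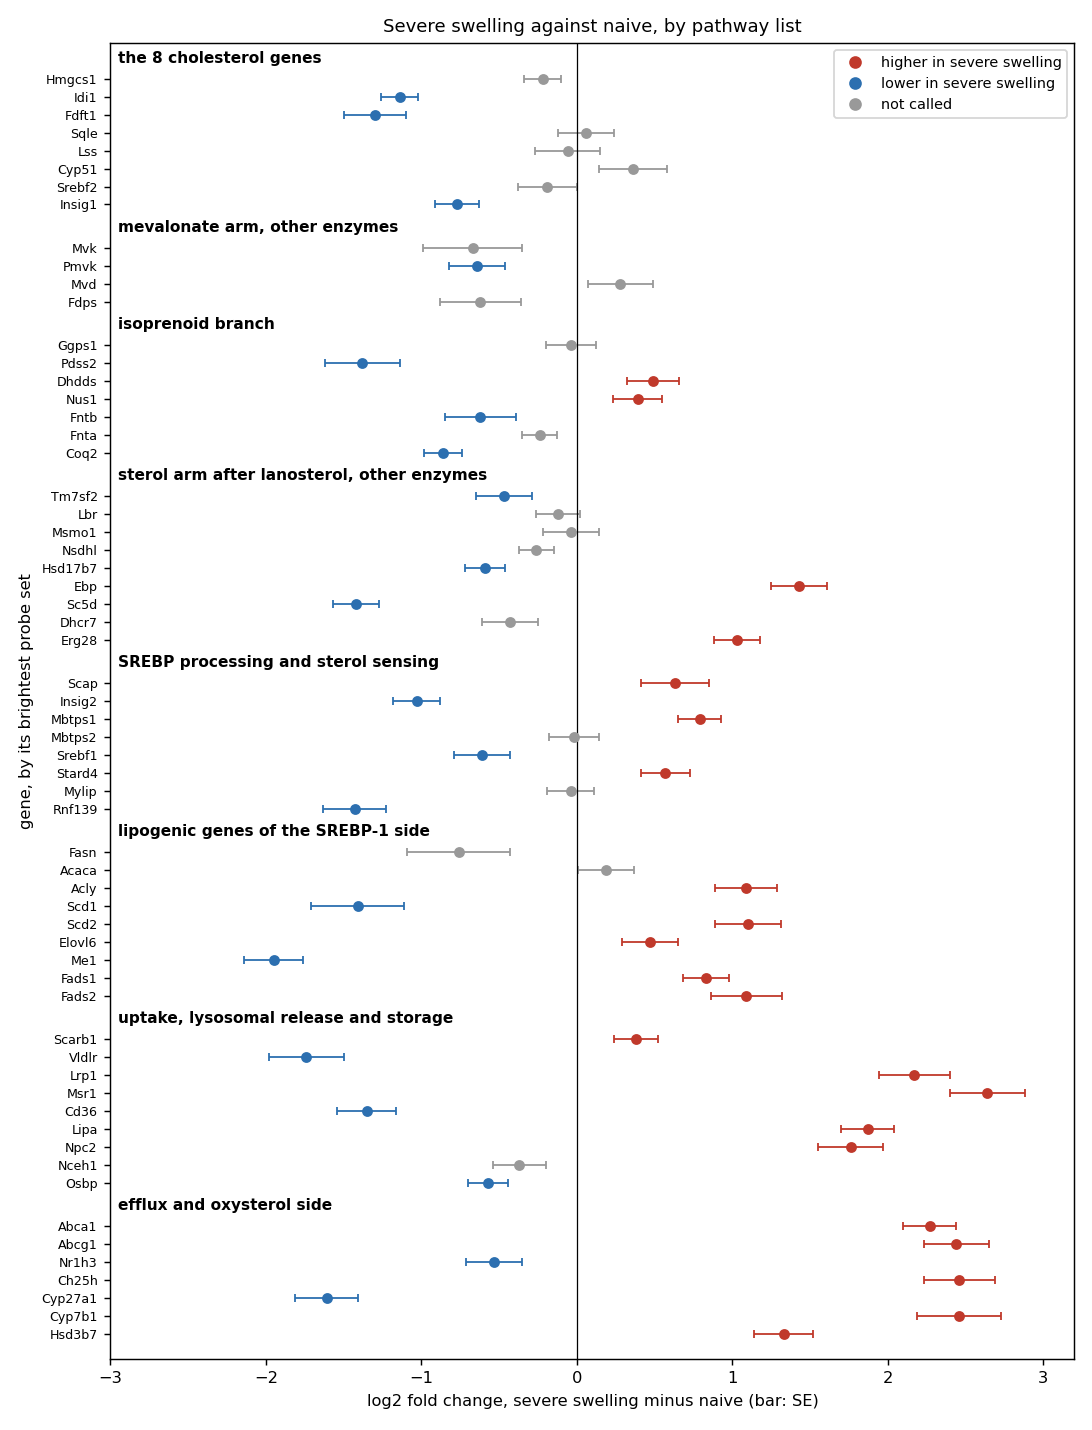
Log2 fold change in severe swelling against naive (points, whiskers of 1 SE, n = 3 arrays a group) for the 8 genes and the tested genes of 7 further lists, each by its brightest probe set. Synthesis enzymes lie on both sides of 0, and the efflux and oxysterol genes Abca1, Abcg1, Ch25h and Cyp7b1 lie above 2.

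Genes of uptake and export stand for the other sides of cholesterol balance. Of 9 tested genes of uptake, lysosomal release and storage, 5 were higher and 3 lower in severe swelling than in naive joints (31.8% and 22.6% of all genes), with a median log2 fold change of 0.38, against 0.11 over all genes. The macrophage scavenger receptor Msr1 had 447.6 ± 46.4 in severe joints against 59.67 ± 18.6 in naive joints (SD, n = 3 each), at 2.64 ± 0.24 (limma adjusted p = 4.08e-07). The lysosomal lipase Lipa (1.87 ± 0.17, 5.16e-07) and the endocytic receptor Lrp1 (2.17 ± 0.23, 1.74e-06) were higher as well. The very low density lipoprotein receptor Vldlr (-1.74 ± 0.24, 2.1e-05), the fatty acid carrier Cd36 (-1.35 ± 0.19, 1.99e-05) and the sterol binder Osbp (-0.57 ± 0.13, 0.00123; with hybridization control scaling -0.07, 0.9) were lower. The lysosomal sterol carrier Npc2 (1.76 ± 0.21, 4.72e-06) and the lipoprotein receptor Scarb1 (0.38 ± 0.14, 0.0279; under quantile normalization 0.32, 0.0622, and with aligned medians 0.17, 0.404) made up the 5 that were higher. These last 5 genes were named to complete the counts, after their values were seen.

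Of 7 tested genes of efflux and oxysterols, 5 were higher and 2 lower in severe swelling than in naive joints (31.8% and 22.6% of all genes), with a median log2 fold change of 2.27, against 0.11 over all genes. Abca1, the exporter that loads cholesterol onto lipoprotein, had 2366 ± 24.3 in severe joints against 479.2 ± 38.9 in naive joints (SD, n = 3 each), at 2.27 ± 0.17 (limma adjusted p = 1.19e-07). Its partner Abcg1 (2.44 ± 0.21, 2.89e-07) and Ch25h, which makes an oxysterol that holds back SREBP processing (2.46 ± 0.23, 6.14e-07), were higher too. To complete the counts, and named after their values were seen, Cyp7b1 (2.46 ± 0.27, 2.39e-06) and Hsd3b7 (1.33 ± 0.19, 2.92e-05), enzymes that break oxysterols down, were higher. Cyp27a1, a sterol hydroxylase (-1.61 ± 0.20, 7.99e-06), and Nr1h3, the gene of an oxysterol receptor (-0.53 ± 0.18, 0.021; with hybridization control scaling -0.06, 0.901), were lower. The calls of Msr1, Lipa, Lrp1, Abca1, Abcg1 and Ch25h in severe swelling were kept under all 27 alternatives. In joints without swelling Abca1 was also higher, at 1063 ± 248 against 479.2 ± 38.9 in naive joints (1.10 ± 0.17, 0.00324; with hybridization control scaling 0.96, 0.344). Ch25h was higher there too (1.07 ± 0.23, 0.0244), a call lost in 7 of 27 alternatives, with hybridization control scaling (0.93, 0.353), without naive replicate 2 (0.93, 0.0983) or 3 (1.08, 0.0837) and without no-swelling replicate 1 (0.86, 0.126) or 2 (1.01, 0.0548) among them. Macrophage marker signal, given above, was higher in severe swelling, but without swelling it overlapped with that of naive joints. Its part in the signals of these genes was not tested.

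The 6 enzymes did not vary as a block over the 15 arrays. Pearson's r between an enzyme's log2 signal and the mean of the other 5, each standardized, was 0.582 for Idi1, 0.327 for Fdft1, -0.0611 for Hmgcs1, -0.203 for Lss, -0.374 for Sqle and -0.464 for Cyp51. Against the mean of all 6, r was 0.776 for Insig1 and -0.0584 for Srebf2. These are descriptions over arrays that fall into 5 groups and share their scaling. By the same measure, the genes outside the set closest to the mean of the 6 enzymes were Ppp2r5a (0.846), Akap1 (0.845), Herc3 (0.838), Nup153 (0.833), Ciao3 (0.818) and Gm11517 (0.818), of which Nup153 and Gm11517 stayed among the closest 6 under quantile normalization. Closest to Srebf2 were Lamc1 (0.932), Dhx30 (0.923) and Axin1 (0.91), of which Dhx30 stayed among the closest 3. Closest to Insig1 were Iars2 (0.978), Krr1 (0.973) and Vapa (0.964), of which Iars2 and Krr1 stayed.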

How the data were processed

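Per the labels' protocols, biotin-labelled target from total RNA of mouse knee synovium was hybridized to Affymetrix arrays. The deposited table holds linear intensity (MAS5 signal, per the submitters' processing notes, with the version not given in the sources used here) of 45101 probe sets on 15 arrays, with a mean of 150 after trimming 2% at each end on every array. Groups came from sample titles and source names, and 0 columns of values were left unused. The platform annotation held by GEO, whose names can be out of date, gave 34958 probe sets 1 gene symbol, 932 several, and left 9211 unnamed. Probe sets with several symbols named no gene, and the names of the 8 genes matched RefSeq.

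Signals were analysed as log2(signal + 16) in R 4.3.3 with limma 3.58.1. A model of 5 group means was fitted over the 31480 probe sets above their array's 40th percentile (23.4 to 31.1) on at least 3 arrays, moderated by empirical Bayes with an intensity trend (10 residual and 6.09 prior degrees of freedom). Tests were two-sided. A gene outside the 8 was represented by its single-symbol probe set of highest mean (14308 of 18193 genes tested). With 3 arrays a side the smallest p of an exact permutation test is 0.1, and the few arrays limit all precision. The 8 genes, the lists and the tests were chosen with earlier results of these data known. All probe sets of the 8 genes were named. Synthesis and SREBP genes called in severe swelling were named, and of each other list the 3 with the lowest p there. Genes closest in pattern were taken by Pearson's r. Some genes of the lists are not reported here, and Idi2 lay below the filter.

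Settings varied were the pseudocount (1 or 64), the filter (none, or at the 60th percentile), quantile normalization, aligned array medians, scaling on 9 hybridization controls, 1 probe set per gene, a gene's probe sets averaged, no intensity trend, array quality weights, a block for replicate number, only the groups compared, and leaving out each array in turn. The fit was tested on simulated data. Figures were drawn with matplotlib 3.10.9.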

Additional observations from a re-analysis of the deposited data

How the results depend on the processing

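For the called log2 fold changes of the 8 genes and the pathway genes named by rule, 2831 repeats under an alternative kept direction and call, 182 kept direction only and 6 reversed. The calls of the dim Fdft1 and Lss probe sets, which carry no support, are among these repeats. Pathway genes named after their values were seen are not, and their calls were checked only under the alternative scalings, not with single arrays left out. All 6 reversals came with hybridization control scaling: Hmgcs1 1433443_a_at in moderate swelling against naive (0.17) and in severe against no swelling (0.28), Hmgcs1 1433446_at in severe swelling against naive (0.05), and Idi1 1451122_at (0.17), Coq2 (0.07) and Srebf1 (0.09) in mild swelling against naive. The same scaling changed the number of called probe sets to 3 of 18 in severe against naive (8 with the deposited scaling), 3 in moderate against naive (8) and 7 in mild against naive (3), all of these higher, and to 0 in no swelling against naive (3), 0 in moderate against mild (1) and 0 in severe against mild (5). With 1 probe set per gene, which leaves 8 features, the counts were 3, 4, 1 and 1 for severe, moderate, mild and no swelling against naive, 6 and 3 for severe and mild against no swelling, 0 for moderate against mild, 3 for severe against mild and 6 for the F test (11 of 18 probe sets). With each gene's probe sets averaged they were 2, 4, 0 and 1, then 4 and 2, then 0, 2 and 4. In mild against naive, quantile normalization gave 5, aligned medians 6, array quality weights 11 and only the groups compared 6. Array quality weights also gave 10 in mild against no swelling (6) and 3 in moderate against mild. In moderate against mild the count was 0 with no filter, aligned medians, no intensity trend or only the groups compared. In severe against mild it was 3 with no filter and 0 with only the groups compared. Leaving out single arrays gave 7 to 9 in severe, 5 to 9 in moderate, 1 to 5 in mild and 1 to 3 in no swelling against naive. It gave 9 to 10 in severe and 5 to 7 in mild against no swelling, 0 to 2 in moderate against mild, 1 to 6 in severe against mild and 9 to 12 for the F test. Same-numbered arrays showed no common deviation (r of deviations -0.451 to 0.326 over 30 pairs, over 0.1 in 6). With 3 arrays a group this cannot tell whether a number marks a shared run, and the labels do not say. With the replicate block the count in moderate against mild was 0. The cause of these changes was not tested. Signals near the 40th percentile, those of the dim Fdft1, Lss and Cyp51 probe sets, leave little room over background.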

Other observations

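Genes of fatty acid synthesis, the other route under SREBP control, were called in both directions. Of 9 tested, 5 were higher and 2 lower in severe swelling than in naive joints (31.8% and 22.6% of all genes), with a median log2 fold change of 0.47, against 0.11 over all genes. Me1, malic enzyme, which supplies NADPH, had 699.4 ± 92.8 in severe joints against 2732 ± 128 in naive joints (SD, n = 3 each), at -1.95 ± 0.19 (SE; limma adjusted p = 6.68e-07). Acly, ATP citrate lyase, which makes cytosolic acetyl-CoA, had 673.6 ± 48.3 in severe joints against 311 ± 64.6 in naive joints (1.09 ± 0.20, 0.000252). Fads1, a fatty acid desaturase, had 332.6 ± 75.4 against 176.8 ± 3.57 (0.83 ± 0.15, 0.000227). These 3 calls were kept under all 27 alternatives. To complete the counts, and named after their values were seen, the desaturases Scd2 (1.10 ± 0.21, 0.000407) and Fads2 (1.09 ± 0.23, 0.000775) and the elongase Elovl6 (0.47 ± 0.18, 0.0391; under quantile normalization 0.27, 0.21, and with aligned medians 0.28, 0.174) were higher, and the desaturase Scd1 was lower (-1.41 ± 0.30, 0.000843).

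Of 7 tested genes of the isoprenoid branch, which leaves the mevalonate arm before squalene, 2 were higher and 3 lower in severe swelling than in naive joints (31.8% and 22.6% of all genes), with a median log2 fold change of -0.24. Coq2 and Pdss2, both of ubiquinone synthesis, were lower in severe joints. Coq2 had 466.9 ± 67.5 there against 852.8 ± 27.2 in naive joints (-0.86 ± 0.12, limma adjusted p = 2.99e-05; with hybridization control scaling -0.36, 0.448). Pdss2 had 136.1 ± 12.6 against 382.8 ± 68.4 (-1.38 ± 0.24, 0.000181). Dhdds, a subunit of the enzyme that makes the dolichol chain, was higher (0.49 ± 0.17, 0.0252), a call lost in 5 of 27 alternatives, among them without naive replicate 2 (0.49, 0.0545) or 3 (0.41, 0.0997) and without severe replicate 3 (0.32, 0.145). Nus1, its partner subunit, was higher (0.39 ± 0.16, 0.0499; with aligned medians 0.18, 0.437) and Fntb, a farnesyltransferase subunit, lower (-0.62 ± 0.23, 0.0325; with hybridization control scaling -0.17, 0.711), both named after their values were seen.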
